A study of Arabidopsis thaliana with 9 samples.

Results

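The MLP-like proteins of Arabidopsis thaliana are small soluble proteins named after the major latex protein of opium poppy. The 10 loci described here were taken by gene name or locus from a deposited table of 38299 genes. They are MLP43 (AT1G70890), MLP28 (AT1G70830), MLP31 (AT1G70840), MLP34 (AT1G70850), AT3G26460, AT3G26450, MLP423 (AT1G24020), MLP328 (AT2G01520), MLP329 (AT2G01530) and MLP168 (AT1G35310). The choice was made with the genotype differences of several of these genes already known, so those differences are given as a description and support nothing. The table holds 18 further loci of the same kind, which served for comparison.

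RNA was sequenced from sepals of 3 genotypes with 3 libraries each, which are wild-type Col-0 (WT) and the mutants gir1-1 and atml1-3. Each library pooled 200 sepals dissected from 50 closed buds at floral stage 12, from plants kept at 23 °C under constant light. All 9 libraries carry one batch label. The labels give no further treatment or transgene, do not describe the mutations, and do not say whether the libraries of a genotype came from separate plants. The p-values below therefore measure the spread between these libraries, which may be partly technical. GIR1, a transcriptional repressor that interacts with homeodomain factors, and ATML1, a homeodomain transcription factor of the epidermis, are the genes the mutants are named for.

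MLP-like proteins belong to the Bet v 1 superfamily, together with pathogenesis-related PR-10 proteins and the PYR/PYL receptors of abscisic acid. The fold encloses a large hydrophobic cavity, in which members bind small lipophilic ligands. Many MLP genes lie in tandem runs of similar copies, and MLP43 has been described as a positive factor in abscisic acid responses.

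MLP28, MLP31, MLP34 and MLP43 lie on the minus strand of chromosome 1 in a run of 8 loci over 16.8 kb, chr1:26709889-26726652 on TAIR10.1. Between MLP34 and MLP43 lie AT1G70860, AT1G70870 and AT1G70880, which are MLP-like loci, and the pseudogene AT1G70885. MLP28 is at chr1:26709889-26711587 and MLP43, at the other end, at chr1:26725521-26726652. AT3G26450 (chr3:9681235-9683506) and AT3G26460 (chr3:9683682-9684657) adjoin each other on the minus strand of chromosome 3. MLP328 (chr2:235925-237253) and MLP329 (chr2:239669-240687) form a pair on the plus strand of chromosome 2. MLP423 (chr1:8500119-8502065) and MLP168 (chr1:12956119-12957090), both on the minus strand, have no other member beside them. In the RefSeq annotation MLP43, AT3G26460, MLP328 and MLP168 have 2 exons. MLP28 has 3 exons in each of its 5 transcripts and encodes 335 residues, against 158 for MLP43 and 152 for AT3G26460.

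The copies are similar enough that read assignment matters. The longest stretches shared by a member with counts and a nearby member without any are therefore shown. Both are coding sequence from RefSeq on TAIR10.1, minus strand, and each occurs in both genes of its pair. The stretch of MLP28 and MLP34 lies at chr1:26710653-26710724 in MLP28 and chr1:26716018-26716089 in MLP34. That of the chromosome 3 pair lies at chr3:9681633-9681711 in AT3G26450 and chr3:9684093-9684171 in AT3G26460.
MLP28 and MLP34: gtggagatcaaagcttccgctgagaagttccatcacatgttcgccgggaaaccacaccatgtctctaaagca
AT3G26450 and AT3G26460: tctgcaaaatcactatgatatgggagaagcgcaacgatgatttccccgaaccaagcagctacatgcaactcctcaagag
Of all 50-base words of the gene's transcripts, 2.01% in MLP28, 2.40% in MLP34, 3.61% in AT3G26460 and 3.08% in AT3G26450 were found elsewhere in the genome. No 50-base word of the other 6 members and no 100-base word of any member was found elsewhere. How reads that match both genes of a pair were counted is not given in the sources used here.

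Protein identity, computed from the annotated coding sequences, was 90.5% between MLP28 and MLP34, 84.4% between MLP31 and MLP34 and 81.2% between MLP28 and MLP31. MLP43 was 78.5% identical to MLP28, 75.9% to MLP34 and 74.7% to MLP31. AT3G26460 was 86.2% identical to AT3G26450 and 76.2% to MLP328, but 29.1% to MLP43. MLP328 and MLP329 were 88.1% identical. MLP168 was 53.6% identical to MLP43 and 23.6% to AT3G26460. MLP423 stood apart, at no more than 36.8% with any member. The chromosome 1 run and the chromosome 3 pair each hold a gene with high counts in gir1-1 and a gene without a count.

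**Figure D1:**
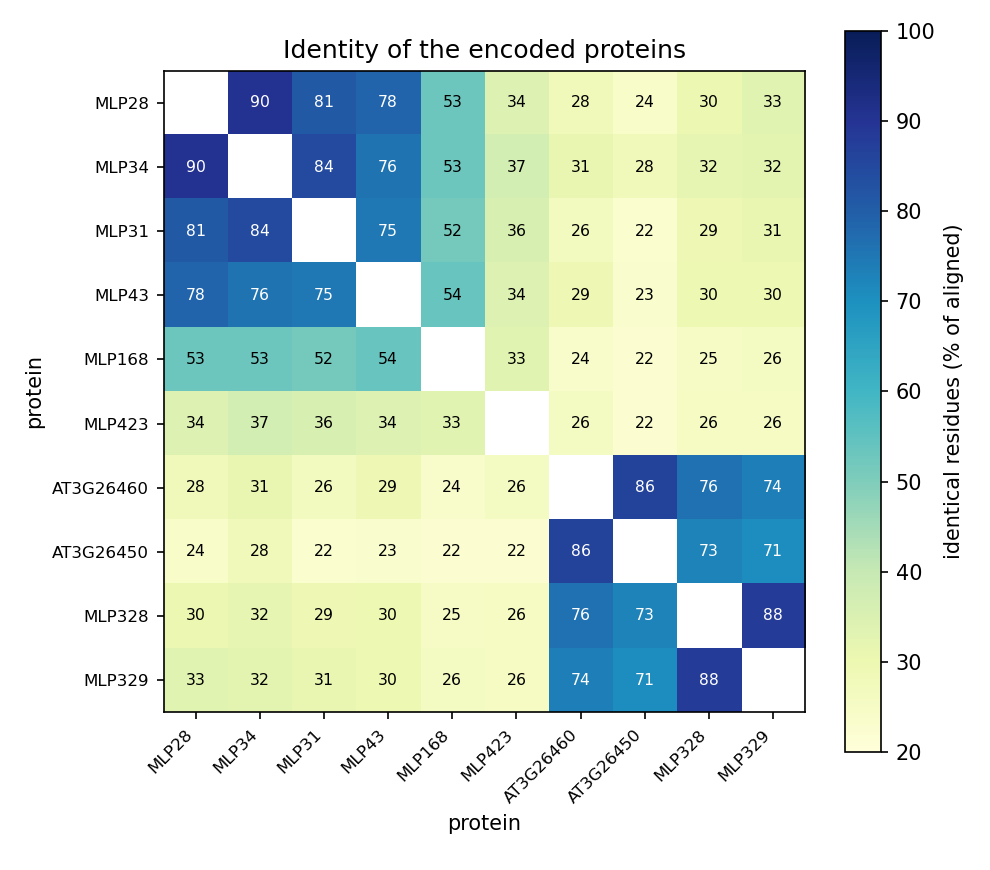
Pairwise protein identity (percent of aligned residues) between MLP-like proteins, with both axes listing the genes and each cell giving a rounded percentage. The chromosome 1 run forms one block, with MLP28 and MLP34 at 90.5%, and AT3G26460 pairs with AT3G26450 at 86.2% but with MLP43 at 29.1%.

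The 300 bases before the annotated start of 4 members are shown because 3 of these genes had counts that differed between genotypes and the fourth, MLP34, had none. They are RefSeq TAIR10.1 sequences on the minus strand, at chr1:26726653-26726952 for MLP43, chr1:26711588-26711887 for MLP28, chr3:9684658-9684957 for AT3G26460 and chr1:26716902-26717201 for MLP34. Capitals mark TATAAA in MLP28 and AT3G26460 and the reverse complement of an L1 box in MLP34.
MLP43: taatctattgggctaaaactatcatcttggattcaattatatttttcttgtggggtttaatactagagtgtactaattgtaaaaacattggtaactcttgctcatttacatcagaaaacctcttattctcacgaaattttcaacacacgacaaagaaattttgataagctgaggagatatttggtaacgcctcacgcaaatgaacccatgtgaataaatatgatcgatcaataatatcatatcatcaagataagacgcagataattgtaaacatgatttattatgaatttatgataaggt
MLP28: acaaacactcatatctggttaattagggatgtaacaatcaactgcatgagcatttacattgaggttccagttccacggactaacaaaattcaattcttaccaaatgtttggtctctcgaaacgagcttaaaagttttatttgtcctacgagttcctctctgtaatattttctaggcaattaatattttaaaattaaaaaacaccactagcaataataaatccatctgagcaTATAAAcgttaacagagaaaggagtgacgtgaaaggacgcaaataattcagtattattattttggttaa
AT3G26460: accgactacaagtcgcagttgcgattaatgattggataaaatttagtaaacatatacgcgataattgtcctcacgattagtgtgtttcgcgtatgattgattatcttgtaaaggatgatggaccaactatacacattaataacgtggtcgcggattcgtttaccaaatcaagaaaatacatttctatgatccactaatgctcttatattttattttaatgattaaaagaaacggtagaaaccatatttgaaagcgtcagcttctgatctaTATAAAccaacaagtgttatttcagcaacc
MLP34: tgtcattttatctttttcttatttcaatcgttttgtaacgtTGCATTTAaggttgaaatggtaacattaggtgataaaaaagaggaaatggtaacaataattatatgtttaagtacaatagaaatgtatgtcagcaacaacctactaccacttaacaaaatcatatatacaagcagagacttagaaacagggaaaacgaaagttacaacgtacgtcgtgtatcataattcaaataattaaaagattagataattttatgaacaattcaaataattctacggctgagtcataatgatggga
The L1 box, here TAAATGCA or TAAATGTA, is the element bound by homeodomain factors such as ATML1. Both strands were searched, also for the G-box CACGTG, the core of the abscisic acid response element (ACGTGGC or ACGTGTC) and TATAAA, and no 2 marked motifs overlap in the windows shown. An L1 box was found in the 300-base window of 1 of the 10 members, MLP34, against 5.51% of 27443 promoters. Over 1000 bases, 2 of the 10 members, MLP31 and MLP34, held one, against 15.8% of promoters. MLP43, MLP28 and AT3G26460 had no L1 box in either window. TATAAA was present in 6 of the 10 members in 300 bases, against 52.9% of promoters, and the response-element core in 0 of 10, against 7.01%.

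The libraries held between 15328056 and 20148807 counts, and the 28 MLP-like loci took 0.130% to 0.229% of them in WT, 0.304% to 0.381% in gir1-1 and 0.183% to 0.280% in atml1-3. The share of the 28 loci in every gir1-1 library was above that of every other library. The 10 members alone took 0.0192% to 0.0331% in WT, 0.0300% to 0.0354% in gir1-1 and 0.0270% to 0.0296% in atml1-3. For the members, gir1-1 and WT thus overlapped. For GIR1 the counts were 26, 36 and 73 (WT), 12, 10 and 7 (gir1-1), and 14, 10 and 17 (atml1-3). For ATML1 they were 522, 537 and 872 (WT), 424, 392 and 325 (gir1-1), and 124, 345 and 266 (atml1-3). Both genes were below every WT library in both mutants, as were 1015 (gir1-1) and 1656 (atml1-3) of the 19174 tested genes. The edgeR adjusted p was 0.385 for GIR1 in gir1-1 and 0.365 for ATML1 in atml1-3. DESeq2 called 1 of the 2 genes in each mutant against WT, where it called 0.731% and 0.835% of all genes. The sepal markers AP1, SEP1 and SEP3 summed to between 491 and 655 CPM (counts brought to a common library size) in all libraries. Of 8 stamen and anther genes, A9 and ATA7 had no count, while QRT3 and AMS had counts in all 9 libraries. The 8 summed to 3.40 to 6.05 CPM in WT, 2.41 to 5.37 in gir1-1 and 3.04 to 6.27 in atml1-3. Of 6 carpel genes, HEC1 had no count, while AG, SHP1 and SPT had counts in all 9 libraries. AP3, of petals and stamens, gave 373 to 1165 counts per library. In a principal component analysis of 500 variable genes, gir1-1 replicate 3, at 50.9, and atml1-3 replicate 1, at -36.5, lay farthest apart on component 1. For 5 members and AT4G23670, fold changes that involve gir1-1 are also given without gir1-1 replicate 3.

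Of the 10 members, 3 (MLP31, MLP34 and AT3G26450) had no count in any library, MLP329 had 2 counts in all, and 6 passed the filter on low counts. AT3G26460 and MLP328 passed it only with the help of the gir1-1 libraries, and MLP43 had nearly all its counts there. Counts over the 6 genes are therefore no support for a difference. A floor of 3 counts in a library corresponds to 0.145 to 0.189 CPM and covers counting error only. The 3 genes at 0 were thus not detectable at this depth. For AT3G26450 the zero has a further limit, since 99.3% of its exon bases lie under AT3G26440 on the other strand, and use of strand in counting is not given in the sources used here. Reads of AT3G26450 and AT3G26440 cannot be told apart here. AT3G26440, added after its values were seen, gave 42, 54 and 66 counts for the WT libraries, 108, 165 and 241 for gir1-1, and 33, 124 and 74 for atml1-3.

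MLP43 was the tested member with the largest fold difference between gir1-1 and WT. WT replicates 1, 2 and 3 gave 5, 13 and 15 counts, those of gir1-1 gave 990, 569 and 774, and those of atml1-3 gave 9, 5 and 0. Per length, as FPKM (fragments per kilobase of gene, scaled to library size), the WT mean was 0.631 ± 0.309 (SD, n = 3), the gir1-1 mean 41.5 ± 11.02 and the atml1-3 mean 0.259 ± 0.274. Every gir1-1 library was far above every WT and atml1-3 library, and WT and atml1-3 overlapped. The fitted log2 fold change was 6.03 (SE 0.57) in gir1-1 against WT, and 6.11 without gir1-1 replicate 3. It was -1.28 (SE 0.72) in atml1-3 against WT and -7.31 (SE 0.63) in atml1-3 against gir1-1, or -7.39 without gir1-1 replicate 3. With each library of the compared genotypes left out in turn, the first ran from 5.67 to 6.312. The second ran from -2.245 to -0.727 and the third from -8.275 to -6.757. RNA of whole sepals does not tell fewer cells of a type from less RNA per cell, here or in the results that follow.

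AT3G26460, which shares 29.1% of residues with MLP43, had the same order of genotype means at lower counts. WT replicates 1, 2 and 3 gave 2, 10 and 11 counts, the gir1-1 replicates 190, 177 and 126, and the atml1-3 replicates 6, 0 and 2. Mean FPKM was 0.517 ± 0.335 (SD, n = 3) for WT, 10.5 ± 2.97 for gir1-1 and 0.187 ± 0.218 for atml1-3. Again the gir1-1 libraries stood clear of all others, and WT and atml1-3 overlapped near the floor. The log2 fold change was 4.33 (SE 0.75) in gir1-1 against WT, 4.55 without gir1-1 replicate 3, and -5.83 (SE 0.84) in atml1-3 against gir1-1, or -6.05 without that library. It was -1.51 (SE 0.90) in atml1-3 against WT. With each library of the compared genotypes left out in turn, the first ran from 3.866 to 4.665. The value of atml1-3 ran from -7.234 to -5.187 against gir1-1 and from -2.908 to -0.8624 against WT.

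For MLP28 the WT replicates gave 81, 153 and 98 counts, the gir1-1 replicates 377, 252 and 315, and the atml1-3 replicates 3, 50 and 51. Mean FPKM was 4.30 ± 1.58 (SD, n = 3) for WT, 11.4 ± 2.21 for gir1-1 and 1.23 ± 0.978 for atml1-3. The 3 genotypes did not overlap, in the order gir1-1, WT, atml1-3, an order without overlap that 1 of the 6 tested members and 0.110% of all tested genes had. Against WT the log2 fold change was 1.41 (SE 0.59) for gir1-1 and -1.79 (SE 0.63) for atml1-3, and it was -3.19 (SE 0.65) for atml1-3 against gir1-1. Without gir1-1 replicate 3 the first and the last were 1.48 and -3.27. With each library of the compared genotypes left out in turn, they ran from 1.208 to 1.743 and from -3.689 to -2.672. The low value of atml1-3 replicate 1 bears on both atml1-3 values, which were -1.27 against WT and -2.67 against gir1-1 without it.

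**Figure D2:**
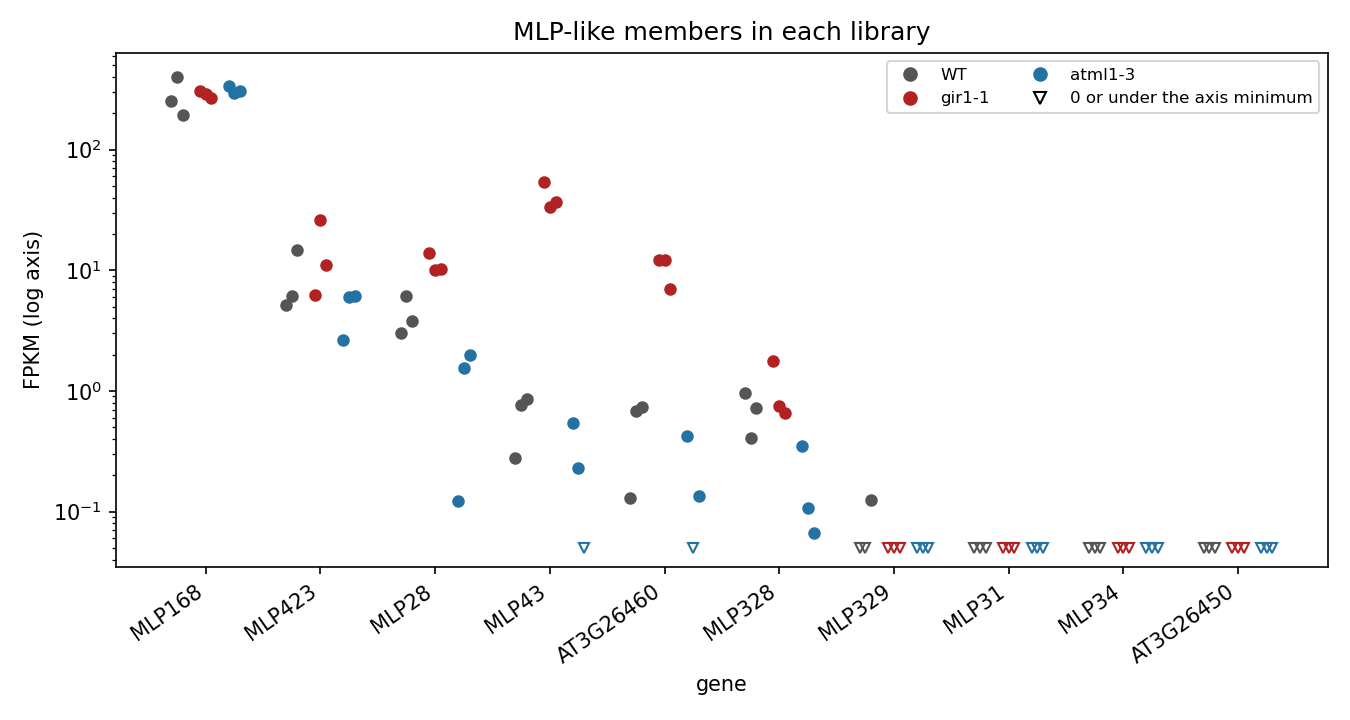
FPKM of each MLP-like member in all 9 libraries on a log axis, with points for libraries grouped by genotype and open triangles for values of 0. MLP43 and AT3G26460 are high in the 3 gir1-1 libraries, MLP28 falls into 3 separate groups, and MLP168 lies between 193 and 403 in every library.

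For MLP423 the WT replicates gave 113, 126 and 315 counts, the gir1-1 replicates 140, 536 and 283, and the atml1-3 replicates 53, 157 and 130. Its genotypes overlapped in gir1-1 against WT and in atml1-3 against WT, with log2 fold changes of 0.74 (SE 0.56) and -0.80 (SE 0.57). The first was 0.01 without gir1-1 replicate 2 and 0.90 without gir1-1 replicate 3, and the second was -0.18 without WT replicate 3. In atml1-3 against gir1-1 MLP423 was at -1.70 without gir1-1 replicate 3. MLP328 was low throughout, with 6 to 15 counts for WT, 11 to 28 for gir1-1 and 1 to 5 for atml1-3. Its log2 fold change was 0.60 (SE 0.68) in gir1-1 against WT and -1.98 (SE 0.78) in atml1-3 against WT. The first was 0.02 without gir1-1 replicate 1 and 0.85 without gir1-1 replicate 3, and atml1-3 against gir1-1 was at -2.82 without the latter. MLP168 was the most abundant member, at rank 242 of all genes by mean FPKM, at 283 ± 108 (SD, n = 3) for WT, 288 ± 19.9 for gir1-1 and 313 ± 20.5 for atml1-3. Its log2 fold changes were 0.03 (SE 0.24) and 0.15 (SE 0.24) against WT, within the spread of the WT libraries, and both changed sign when a WT library was left out.

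In the edgeR quasi-likelihood fit over all 19174 tested genes, with Benjamini-Hochberg adjustment and a threshold of 0.05, 1 of the 6 tested members was called higher in gir1-1 than in WT. This was MLP43, with an adjusted p of 0.00984, and 0.0104% of all genes were called higher in gir1-1. The call did not hold without WT replicate 1 (adjusted p = 0.0791) or without gir1-1 replicate 1 (adjusted p = 0.0876). DESeq2 called 2 of the 6 members in gir1-1 against WT, where it called 0.731% of all genes. In atml1-3 against WT 0 of 6 members were called by edgeR and 0 by DESeq2, and 2 had an unadjusted p under 0.05. Of all genes, 0% were called by edgeR, 0.835% by DESeq2 and 11.7% at the unadjusted p. In atml1-3 against gir1-1 edgeR called 2 members lower, MLP43 (adjusted p = 0.00504) and AT3G26460 (adjusted p = 0.0487), where 0.0782% of all genes were called lower. DESeq2 called 3 there, these and MLP28 (adjusted p = 1.72e-05), where it called 0.750% of all genes. AT3G26460 lost its call whichever of the 6 libraries of these genotypes was left out, with adjusted p from 0.0713 to 0.302. In the authors' deposited table, MLP43, MLP28 and AT3G26460 had adjusted p-values of 6.29e-45, 0.0117 and 6.7e-12 in gir1-1 against WT, in which 0.454% of genes passed 0.05. The members were chosen with these contrasts known, and no count of calls is read as a result about them.

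Counted by overlap alone, 3 of the 6 tested members (MLP43, MLP28 and AT3G26460) had all gir1-1 libraries above all WT libraries, where 5.17% of tested genes did. In atml1-3 against WT, 2 of 6 (MLP28 and MLP328) lay wholly below, where 8.64% did. In atml1-3 against gir1-1, 5 of 6 lay wholly below, where 7.00% did, and MLP168 overlapped. The median log2 fold change of the 6 was 1.07, -1.39 and -2.88 in the 3 comparisons, in that order, while that of all tested genes was between -0.01 and 0.00. The comparisons share libraries, so these are not independent of each other.

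**Figure D3:**
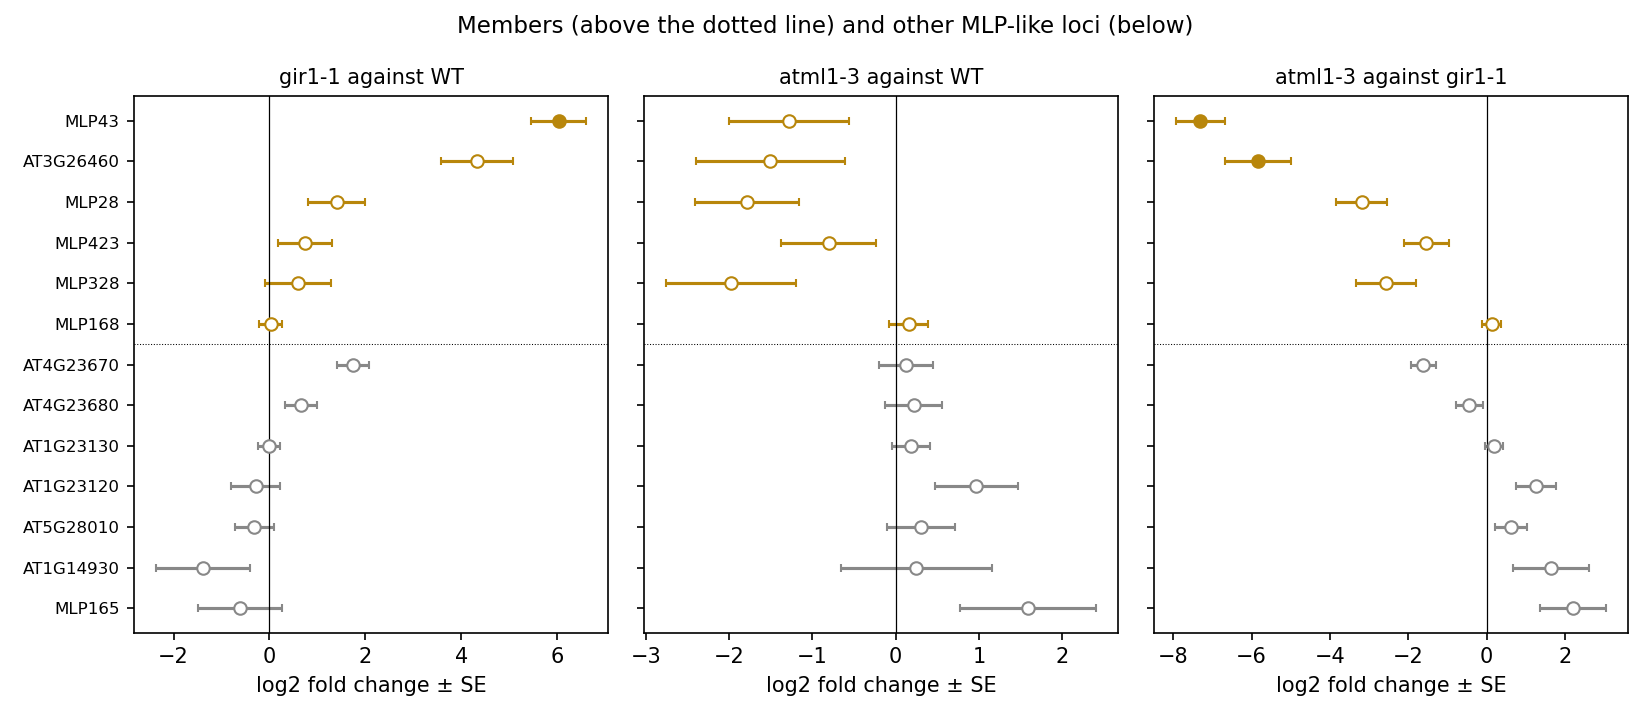
Fitted log2 fold change with its SE for the tested members (above the dotted line) and other tested MLP-like loci (below) in each genotype comparison, 1 panel per comparison with its own scale, where filled markers have an edgeR adjusted p under 0.05. MLP43 is at 6.03 in gir1-1 against WT and -7.31 in atml1-3 against gir1-1, and MLP168 is at 0.03 and 0.12.

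Within the chromosome 1 run, MLP28 and MLP43 exchanged their order between genotypes. Per kilobase, MLP43 stood at 0.0911 to 0.226 times the level of MLP28 in the 3 WT libraries and at 3.33 to 3.88 times in the 3 gir1-1 libraries, a ratio within each library that needs no scaling between them. In atml1-3 the ratio ran from 0.0868 to 4.43, with counts under the floor of 3 set to 3 and few counts of either gene. Of the loci between them, AT1G70860 had no count, and AT1G70870 and AT1G70880 had 1 and 3 counts in all, each in gir1-1 replicate 3. The pseudogene AT1G70885, which was looked at after its values were seen, gave 8, 0 and 3 counts for WT, 10, 0 and 6 for gir1-1 and none for atml1-3.

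In gir1-1, members of similar sequence in the same run or pair stood apart in level. With MLP34 placed at the floor of 3 counts per library, MLP43 was at least 253-fold higher per kilobase than MLP34 in every gir1-1 library. These 2 genes are not adjacent, since the loci named above lie between them. MLP28 was at least 41.9-fold higher than MLP31 in every gir1-1 library and at least 13.5-fold higher in every WT library. AT3G26460 was at least 48.9-fold higher than AT3G26450 in every gir1-1 library, with the limit on strand given above. MLP328 was at least 3.85-fold higher than MLP329 in every gir1-1 library. In WT the bound for MLP43 over MLP34 was 2.23-fold to 6.68-fold. MLP43, MLP28, AT3G26460 and MLP328 each had an atml1-3 library at or under the floor, in which no fold over the other gene can be given. The same held for AT3G26460 in WT replicate 1, at 2 counts. MLP31 and MLP34 were both at 0 throughout. These ratios are descriptions of pairs chosen with the values known, and no test was made of them.

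**Figure D4:**
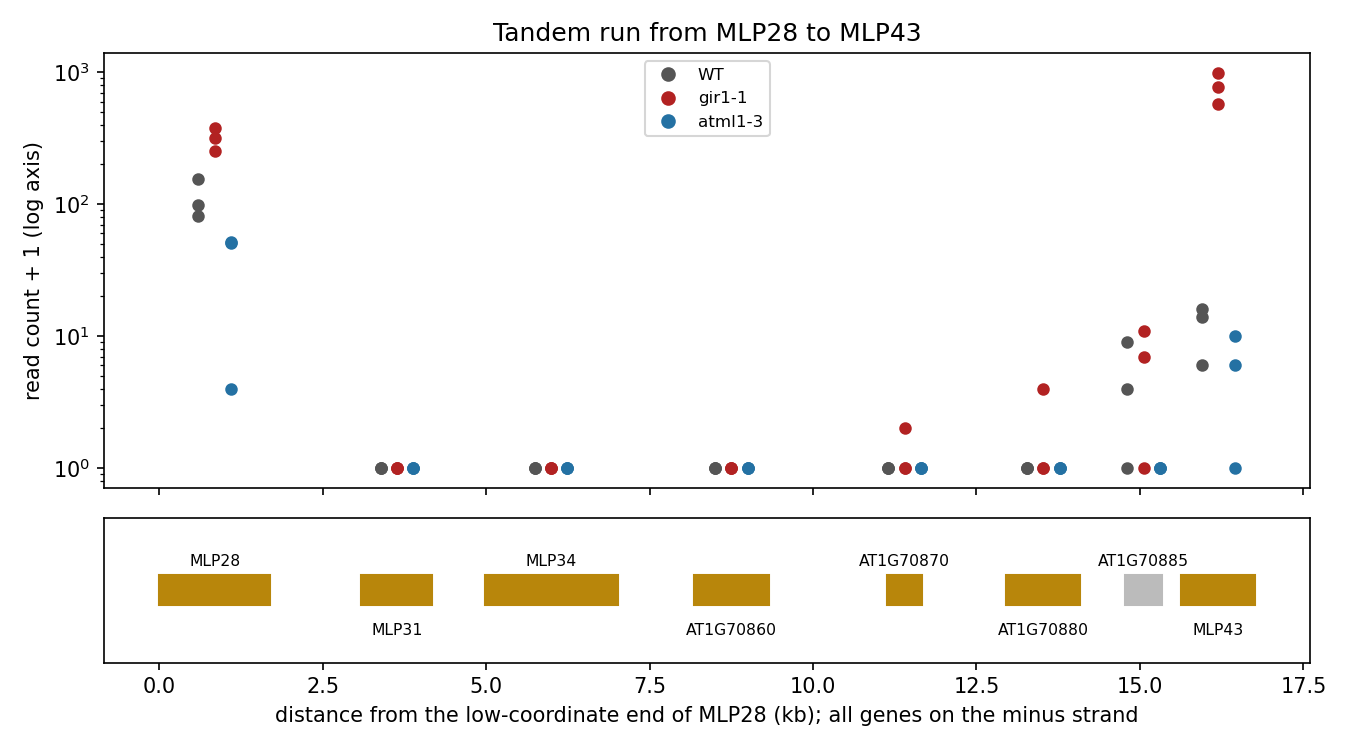
Loci of the chromosome 1 run in order along the chromosome, as distance in kb from the low-coordinate end of MLP28 (lower panel, pseudogene in grey), with the read count plus 1 of each library on a log axis (upper panel, points coloured by genotype). MLP28 and MLP43 at the 2 ends carry nearly all counts, and MLP31, MLP34 and AT1G70860 have none.

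Among the 18 further MLP-like loci, 6 had no count and 7 passed the filter. edgeR called 0 of the 7 in every comparison, and DESeq2 called AT4G23670 in gir1-1 against WT and in atml1-3 against gir1-1, where it called 0.731% and 0.750% of all genes. At an unadjusted p under 0.05 there were 1 and 3 of the 7 in these comparisons, against 7.52% and 7.35% of all genes, and 0 in atml1-3 against WT. The most abundant were AT4G23680, AT1G23130 and AT4G23670, which with MLP168 held at least 97.0% of the family's counts in every library. AT4G23670, a neighbour of AT4G23680 on chromosome 4 and 69.5% identical to AT3G26460, had FPKM of 242, 430 and 449 for the WT replicates, 1405, 1337 and 998 for gir1-1, and 550, 417 and 248 for atml1-3. All gir1-1 libraries were above all others, with a log2 fold change of 1.74 (SE 0.33) against WT and an edgeR adjusted p of 0.201. Without gir1-1 replicate 3 the log2 fold change was 1.88, and atml1-3 against gir1-1 was at -1.75. With each library of the compared genotypes left out in turn, they ran from 1.505 to 1.893 and from -1.896 to -1.358. Its ratio to AT4G23680 per kilobase was 0.510 to 0.610 in WT, 0.924 to 1.55 in gir1-1 and 0.458 to 0.578 in atml1-3. AT4G23680 itself had a log2 fold change of 0.66 (SE 0.34) and AT1G23130 one of -0.00 (SE 0.23) in gir1-1 against WT. All gir1-1 libraries of AT4G23680 also lay above its WT libraries, but they overlapped with atml1-3. Thus 2 of the 7, AT4G23670 and AT4G23680, lay wholly above WT in gir1-1, where 5.17% of tested genes did. AT5G28010 stood at 3.09 ± 0.919 FPKM (SD, n = 3) for WT, 2.49 ± 1.32 for gir1-1 and 3.80 ± 0.623 for atml1-3, with log2 fold changes of -0.31 (SE 0.41) and 0.30 (SE 0.41) against WT.

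**Figure D5:**
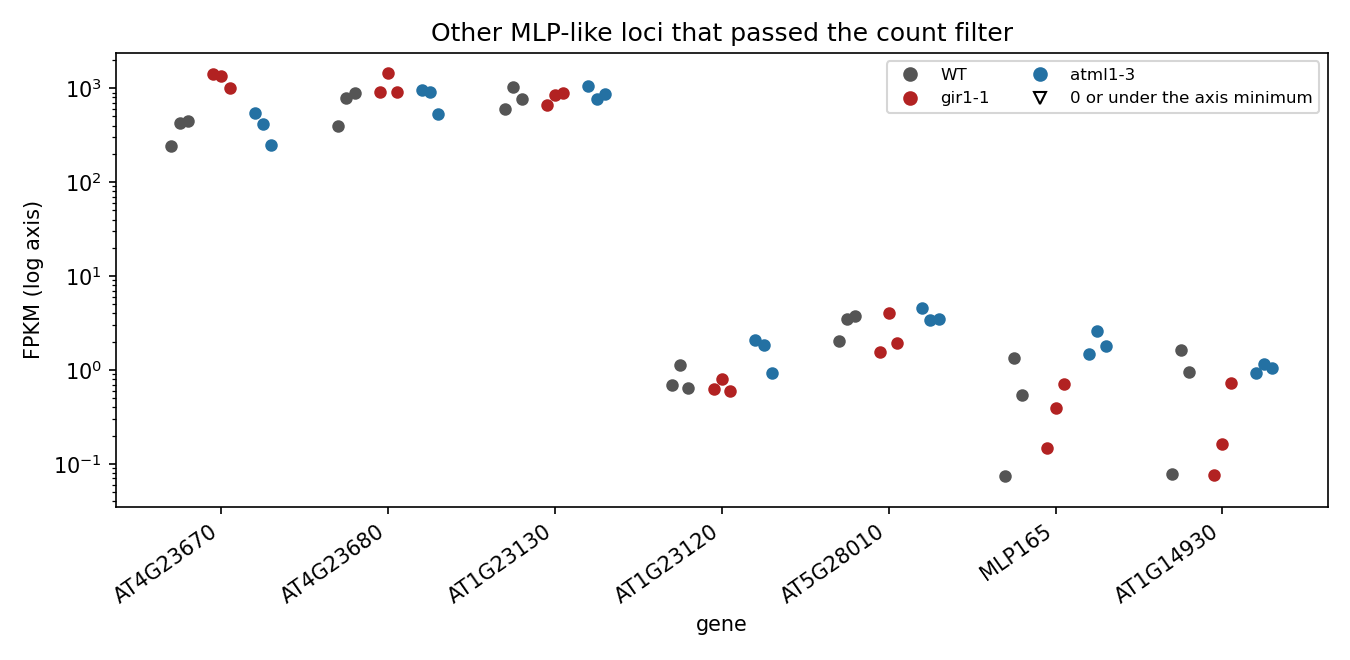
FPKM of MLP-like loci outside the 10 members in all 9 libraries on a log axis, with points for libraries grouped by genotype. AT4G23670 lies between 998 and 1405 in gir1-1 and between 242 and 550 in the other libraries, and AT1G23130 overlaps in all genotypes.

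Of the 14 PYR/PYL receptors, which share the fold, 10 were tested and edgeR and DESeq2 called 0 in any comparison, with 1, 1 and 2 at an unadjusted p under 0.05. Of all tested genes 7.52%, 11.7% and 7.35% had such a p in gir1-1 against WT, atml1-3 against WT and atml1-3 against gir1-1. The median log2 fold change was -0.38 for gir1-1 and -0.24 for atml1-3, both against WT, and 0.22 for atml1-3 against gir1-1. Of 13 abscisic acid response genes, all tested, both tools called 0, with 4, 3 and 1 at an unadjusted p under 0.05, to be read against the same 7.52%, 11.7% and 7.35%. Their medians were 0.41, 0.17 and -0.36, against medians of all tested genes between -0.01 and 0.00.

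Over the 9 libraries and 19168 genes, log2 CPM of MLP43 was most like that of SOT17, a sulfotransferase of glucosinolate synthesis (Pearson r = 0.966), and AKN2, an adenosine phosphosulfate kinase (r = 0.963). AT5G23820 (r = 0.955), ZW9 (r = 0.950) and AT4G23670 (r = 0.946) followed. AT3G26460 was most like SFH3 (r = 0.954), AOP2 (r = 0.951), SOT17 (r = 0.942), AT2G30350 (r = 0.922) and PBP1 (r = 0.913). The 9 points share 3 genotype groups, and both query genes were high in one of them, so r is a description and carries no p. The mean level of AKN2 was 16.3 CPM for WT, 58.2 CPM for gir1-1 and 8.55 CPM for atml1-3.

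Among the other tissues' markers, 2 of the 4 tested nectary genes lay wholly below WT in gir1-1, where 1015 of 19174 tested genes did. CRC, a regulator of nectary and carpel development, gave 20, 36 and 16 counts for WT, 0, 0 and 2 for gir1-1 and 19, 39 and 24 for atml1-3. CWINV4, a cell wall invertase of nectaries, gave 141, 77 and 14 counts for WT, 0, 5 and 5 for gir1-1 and 10, 56 and 62 for atml1-3. Their log2 fold changes in gir1-1 against WT were -5.05 (SE 0.88) and -4.57 (SE 1.08), with edgeR adjusted p of 0.151 and 0.353 and DESeq2 adjusted p of 0.00376 and 0.000667. edgeR thus called 0 of the 4 tested nectary genes and DESeq2 called these 2, and 3 had an unadjusted p under 0.05. Of all genes, edgeR called 1 lower in gir1-1, DESeq2 called 0.731% and 7.52% had such an unadjusted p. In atml1-3 against gir1-1 CRC and CWINV4 were at 5.14 and 3.63, with DESeq2 adjusted p of 0.0019 and 0.0207 and edgeR adjusted p of 0.0736 and 0.595. The summed level of the 5 nectary genes was 13.6 to 32.3 CPM in WT, 13.0 to 21.2 in gir1-1 and 15.7 to 29.7 in atml1-3. JMT, a methyltransferase of jasmonate, gave 11.4 to 24.9 CPM of that sum in WT, 12.7 to 20.9 in gir1-1 and 13.4 to 23.2 in atml1-3. The other 4 summed to 2.23 to 14.4 CPM in WT, 0 to 0.344 in gir1-1 and 1.82 to 6.50 in atml1-3. SWEET9 and PIN6, 2 of the 5, were at 0 in all gir1-1 libraries. They had counts in only 4 and 3 of the 9 libraries, and each was also at 0 in some WT and atml1-3 libraries. Of 6 carpel genes 4 were tested, and in gir1-1 against WT 1 had a positive log2 fold change and 3 a negative one (median -0.27), while all 4 were positive in atml1-3 against WT (median 0.73). Both tools called 0 of them in every comparison, with 0, 1 and 1 at an unadjusted p under 0.05. Of all tested genes 7.52%, 11.7% and 7.35% had such a p in gir1-1 against WT, atml1-3 against WT and atml1-3 against gir1-1. The summed level of the 6 carpel genes was 12.3 to 25.8 CPM in WT, 16.3 to 20.2 in gir1-1 and 24.1 to 33.3 in atml1-3. SHP1, the positive one in gir1-1, was above WT in all libraries of both mutants, at 0.43 (SE 0.31) and 0.92 (SE 0.31). SPT, at 0.75 (SE 0.29), and the petal and stamen gene AP3, at 0.57 (SE 0.29), were above gir1-1 in all atml1-3 libraries. Of the 19174 tested genes, 991 lay wholly above WT in gir1-1 and 1888 in atml1-3, and 1534 lay wholly above gir1-1 in atml1-3. The epidermal gene CER5 was below WT in all atml1-3 libraries, at -0.48 (SE 0.23), as were 1656 of the tested genes. The 4 epidermal markers summed to 584 to 717 CPM in WT, 394 to 657 in gir1-1 and 383 to 551 in atml1-3. Their part in the MLP values was not tested.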

How the data were processed

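Sepal RNA from 9 libraries was used as 1 deposited table of 38299 genes. Per the file headers it holds raw counts per gene, FPKM per library made by the authors, 6 columns of genotype means that belong to no single sample and were not used, and the authors' log2 fold changes and p-values with adjusted p-values for each pair of genotypes. The deposited log2 and p-value columns were only quoted as the authors'. The genome build is TAIR version 10 per the submitters' processing notes, and the aligner, the counting program and the use of strand are not given in the sources used here. Gene starts and ends in the deposited table equalled those of RefSeq TAIR10.1 for all 28 MLP-like loci.

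Groups and replicate numbers were taken from sample titles. Deposited counts were tested with edgeR 4.0.16 in R 4.3.3 (TMM scaling, filterByExpr defaults, quasi-likelihood test, genotype as the only factor, all 9 libraries, 6 residual degrees of freedom), with Benjamini-Hochberg adjustment over 19174 genes at 0.05. SE values are |log2 fold change|/sqrt(F). DESeq2 1.42.0, with independent filtering set to the same 0.05, was an alternative, as were other scaling, no filter, only the compared genotypes, a replicate block and leaving out each library. Log2 CPM used a prior count of 0.5. The chi-square per degree of freedom between replicates was 27.23 to 65.77, so no library was a duplicate. The code was tested on simulated data. Sequence features were computed with Biopython 1.88.

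The members and gene lists were chosen with earlier results of these data known. Genes are named by rule: all members, GIR1 and ATML1, of further MLP-like loci the 5 highest by mean FPKM, those called and those in a member's tandem run, called receptor and response genes, the 5 genes most correlated with MLP43 and with AT3G26460, and markers at 0 or without overlap between genotypes. AT3G26440, AT1G70885, MLP165, AT1G14930, and the nectary sum without JMT were added after their values were seen.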

Additional observations from a re-analysis of the deposited data

How the results depend on the processing

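The count of members called in gir1-1 against WT, 1 with edgeR, was 2 with DESeq2, and was between 0 and 1 when each library was left out. In atml1-3 against gir1-1 it was 2, was 3 with DESeq2 (MLP28 added), and became 1 with scaling by total counts and 1 with each library left out. In atml1-3 against WT it was 0 under every alternative run. Over all genes the 3 edgeR calls in gir1-1 against WT became 152 with DESeq2, 15 without the filter, 1 with the replicate block and 0 to 6 with libraries left out. The 0 in atml1-3 against WT became 157, 1, 0 and 0 to 5. The 16 in atml1-3 against gir1-1 became 156, 59, 20 and 1 to 7, and 42 with only these genotypes fitted. The equal replicate numbers did not pair the samples, since correlations of same-numbered deviations lay between -0.172 and 0.101. With a replicate block, 0 members were called in gir1-1 against WT and 1 in atml1-3 against gir1-1, and the log2 fold change of MLP43 was 5.97 in the first. Of 214 alternative values of member fold changes, 4 changed sign, all of MLP168, whose values lie near 0. With libraries left out it ran from -0.182 to 0.380 in gir1-1 against WT (negative without WT replicate 1, WT replicate 3 or gir1-1 replicate 1) and from -0.0564 to 0.498 in atml1-3 against WT (negative without WT replicate 3). Among the further loci in gir1-1 against WT, AT1G23130 was 0.0371 with total counts and 0.00910 with the replicate block, and with libraries left out it ran from -0.178 to 0.229, AT1G23120 from -0.437 to 0.00779 and MLP165 from -1.24 to 0.461. In atml1-3 against WT, AT1G14930 ran from -0.296 to 1.02, AT4G23670 from -0.156 to 0.383 and AT4G23680 from -0.0627 to 0.442, each negative without WT replicate 1 and AT4G23670 also without atml1-3 replicate 1. The cause of these changes was not tested. Depth limits the genes near the floor of 3 counts, MLP328 and MLP43 or AT3G26460 outside gir1-1.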

Other observations

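All 7 tested MLP-like loci outside the 10 members had a positive log2 fold change in atml1-3 against WT (median 0.25). So did 9369 of the 19174 tested genes. edgeR and DESeq2 called 0 of the 7 there, with 0 at an unadjusted p under 0.05. Of all genes, 0% were called by edgeR, 0.835% by DESeq2 and 11.7% had such a p. The 4 less abundant ones, MLP165, AT1G23120, AT5G28010 and AT1G14930, had their highest mean in atml1-3. So did the abundant AT1G23130, at 905 FPKM against 802 in WT and 800 in gir1-1. AT4G23670 and AT4G23680 had theirs in gir1-1. MLP165 had a mean FPKM of 0.650 ± 0.640 (SD, n = 3) in WT, 0.416 ± 0.280 in gir1-1 and 1.95 ± 0.590 in atml1-3, and its atml1-3 libraries lay above all others. AT1G23120 had 0.826 ± 0.268 in WT, 0.674 ± 0.113 in gir1-1 and 1.61 ± 0.609 in atml1-3, with atml1-3 above gir1-1 without overlap. Of the 7, 1 had all atml1-3 libraries above all WT libraries, as did 1888 of the 19174 tested genes. Another comparison, with gir1-1, had 3 of the 7 wholly above in atml1-3 and 1534 of the tested genes. AT1G14930 had 0.888 ± 0.780 in WT, 0.324 ± 0.356 in gir1-1 and 1.04 ± 0.115 in atml1-3, and AT5G28010 had 3.09 ± 0.919, 2.49 ± 1.32 and 3.80 ± 0.623 in the same order. AT1G23130, the neighbour of AT1G23120, stood at least 421-fold higher per kilobase in every library. The edgeR log2 fold change in atml1-3 against gir1-1 was 2.20 (SE 0.84) for MLP165 and 1.26 (SE 0.50) for AT1G23120, with adjusted p of 0.652 and 0.654, so neither passed the threshold. MLP165 and AT1G14930 were picked out after their values were seen.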
